A study of Mus musculus with 18 samples.

Results

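The centromere-proximal 5 Mb of the mouse autosomes is the stretch from 3 to 8 Mb on each of chromosomes 1 to 19, cut into 950 tiles of 100 kb. It was chosen by position alone, and no methylation value entered the choice. Of the 950 tiles, 949 held a known base in the NCBIM37 build, of 24017 such tiles on all autosomes. At least 50 methylation calls in every library were present in 893 proximal tiles of 23759 autosomal tiles, and these were tested tile by tile. The totals over 3 to 8 Mb used every proximal tile. Most proximal tiles that were not tested lay on chromosome 14, where only 5 of 50 had enough calls.

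Whole-genome bisulfite sequencing, which reads every CpG call as methylated or unmethylated, was made from 18 libraries of mouse embryonic stem cells (ESCs). The study asked how the genome and its transposons behave when DNA methylation is lost after acute deletion of Dnmt1. Control libraries carried the genotype label Wildtype, and the others the label Dnmt1 KO. Both genotypes were sampled at days 1, 3, 6, 9 and 11, as 2 libraries of each genotype per day, but only 1 of each on day 6. According to the methods, loxP-flanked Dnmt1 was cut by a Cre that tamoxifen switches on, in cells grown in serum and LIF with or without feeder cells. No label says whether the control cells received tamoxifen. The labels give E14 as the strain of all libraries of both genotypes, whereas the methods describe the loxP line as C57BL/6. Whether both genotypes came from the same line is not stated, so a part of lines in a genotype difference cannot be told apart. The design speaks of biological replicates without saying whether these were separate cultures, so p-values measure the spread between these libraries. Whether libraries of different days came from the same cultures is not stated either, and an SD over several days includes change between days. Markers of the cell type are read in RNA and could not be checked here.

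Mouse chromosomes are telocentric: the centromere sits at the very start of the chromosome, and its satellite repeats, packed as constitutive heterochromatin, fill the unassembled stretch before the first known base. The proximal tiles are therefore the first assembled sequence beside a large block of heterochromatin. Dnmt1 copies CpG methylation onto the new strand after replication, with Uhrf1 as its partner. Dnmt3a and Dnmt3b set methylation de novo and are active in ESCs, so cells without Dnmt1 lose most of their methylation over several divisions and keep a low level. In most mammalian sequence CpGs are sparse and methylated, while clusters of CpGs at many gene starts are kept free of methylation.

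Libraries held between 7190722 and 11158414 calls, at 1.202 to 1.253 calls per listed cytosine. After cytosines with over 20 calls in any library were left out, 227207 to 363609 calls per library remained in the proximal 5 Mb. The build has 752761 CpGs there, so most of them had no call in a given library. Single CpGs were therefore not compared. Dnmt1 itself (ENSMUSG00000004099.8) lies on chromosome 9 but outside 3 to 8 Mb. A run of 39 CpGs in it, from 20744012 to 20745971, had 173 calls over the 9 control libraries, between 6 and 29 in each, and 0 in the Dnmt1 KO libraries after day 1. The run was chosen as the one without calls in those libraries, so its 0 describes the choice and does not check the labels. The 2 Dnmt1 KO libraries of day 1 had 4 calls there.

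5 windows of 200 bp give examples of proximal sequence. No window is printed for the tile chr19:5000001-5100000, which is also named below. Each is the window with the most calls inside a tile named further down, among windows that touch no annotated untranslated region, given 5′ to 3′ on the plus strand of NCBIM37 with every CpG in capitals and all other bases in lower case. The windows on chromosomes 2 (chr2:7866253-7866452, 9 CpGs), 7 (chr7:5655645-5655844, 13 CpGs) and 8 (chr8:7158377-7158576, 4 CpGs) come from the 3 tiles that fell furthest below their chromosomes. The tiles on chromosomes 2 and 8 hold no annotated gene. The window on chromosome 3 (chr3:5860530-5860729, 18 CpGs) is CpG-rich and lies outside any annotated gene, and the 1 kb around it took most of the calls of its tile. It had 1017 control calls at days 9 and 11, against 11 to 49 in the other windows printed here. Whether its calls came from several copies of a repeat was not tested, so its level may not be that of this place alone. The window on chromosome 19 (chr19:7416373-7416572, 20 CpGs) lies 122 bp from the start of Mark2, which encodes a microtubule-affinity regulating kinase, outside the gene.
chromosome 2 window: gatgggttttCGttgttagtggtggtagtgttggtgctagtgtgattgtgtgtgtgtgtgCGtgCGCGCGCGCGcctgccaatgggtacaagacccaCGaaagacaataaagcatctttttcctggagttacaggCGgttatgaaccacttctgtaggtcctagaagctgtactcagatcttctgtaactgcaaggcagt
chromosome 7 window: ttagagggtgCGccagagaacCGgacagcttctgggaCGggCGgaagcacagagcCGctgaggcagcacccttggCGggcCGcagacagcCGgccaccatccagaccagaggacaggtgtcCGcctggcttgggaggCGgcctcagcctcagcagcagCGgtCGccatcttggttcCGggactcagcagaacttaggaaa
chromosome 8 window: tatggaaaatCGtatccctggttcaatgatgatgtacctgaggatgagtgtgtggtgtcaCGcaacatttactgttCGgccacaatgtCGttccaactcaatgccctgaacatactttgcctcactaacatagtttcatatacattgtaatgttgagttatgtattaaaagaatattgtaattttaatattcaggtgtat
chromosome 3 window: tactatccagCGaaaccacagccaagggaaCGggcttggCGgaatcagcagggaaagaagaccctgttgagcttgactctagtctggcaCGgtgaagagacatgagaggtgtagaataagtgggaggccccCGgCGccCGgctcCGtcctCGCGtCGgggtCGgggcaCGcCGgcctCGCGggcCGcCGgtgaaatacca
chromosome 19 window: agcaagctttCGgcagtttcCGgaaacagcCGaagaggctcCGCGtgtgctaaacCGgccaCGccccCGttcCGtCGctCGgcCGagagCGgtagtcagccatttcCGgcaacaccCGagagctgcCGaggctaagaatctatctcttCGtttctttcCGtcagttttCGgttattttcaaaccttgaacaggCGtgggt

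The same windows differed widely in methylation in control cells. In the chromosome 2 window, 32 of 33 pooled control calls of days 9 and 11 were methylated (97%, 95% exact interval 84.2% to 99.9%). In Dnmt1 KO 0 of 9 calls were, which allows a level of up to 33.3%. In the chromosome 8 window, 10 of 14 control calls (71.4%, 41.9% to 91.6%) and 1 of 10 Dnmt1 KO calls (10%, 0.253% to 44.5%) were methylated. The chromosome 7 window, CpG-rich unlike most of its tile, had 6 of 11 control calls methylated (54.5%, 23.4% to 83.3%) and 3 of 7 in Dnmt1 KO (42.9%, 9.899% to 81.6%). The windows on chromosomes 3 and 19 were almost free of methylation already in control. The chromosome 3 window had 49 methylated of 1017 control calls (4.82%, 3.59% to 6.32%) and 21 of 797 in Dnmt1 KO (2.63%, 1.64% to 4.0%). The Mark2 window had 1 of 49 control calls methylated (2.04%, 0.0517% to 10.9%) and 0 of 8 in Dnmt1 KO, which allows up to 37.5%. These intervals are exact binomial intervals and, like the limits for a count of 0, cover counting error only: neighbouring calls of a read are not independent.

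As sequence, the proximal 5 Mb was slightly poorer in CpGs than the rest of the autosomes and had a smaller share of its bases in genes. It held 7.99 CpGs per kb against 8.53 in the rest, with a GC content of 41.7% against 41.9%, and 38.4% of its bases lay in genes against 42.1%. Pooled over chromosomes, protein-coding gene starts were not scarcer, at 9.78 per Mb against 8.91, and 921 of 21418 (4.30%) lay there. Chromosomes 19, 7 and 14 held 179, 127 and 102 of these starts, and single chromosomes went either way. Some of the starts lay in clusters of related genes on chromosome 7. Of 435 vomeronasal receptor genes, which encode pheromone receptors, 34 started in the proximal tiles, 30 of them on chromosome 7. Of 370 genes of the Zfp series of zinc finger proteins 24 did, 16 of them on chromosome 7. Olfactory receptor genes were few there (10 of 1243), and no member of the 71 defensin genes started there. Chromosomes differed strongly: proximal chromosome 19 held 13.5 CpGs per kb and 179 coding starts, and proximal chromosome 3 held 5.65 CpGs per kb and 8 coding starts.

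As a mean over 19 chromosomes, the proximal level lay within 1 point of the rest in control and on day 1 of Dnmt1 KO. In Dnmt1 KO of later days it was lower. Single chromosomes did not match in this way. Proximal minus rest, their control means ranged from -14.3 points on chromosome 19 to 5.19 points on chromosome 4. Levels here are the percent of methylated calls in 3 to 8 Mb of each chromosome, averaged over the 19 chromosomes with equal weight. Control libraries had proximal levels of 77.3% and 74.5% on day 1, 75.4% and 75.2% on day 3, 79.1% on day 6, 77.6% and 76.0% on day 9, and 71.4% and 71.5% on day 11. Dnmt1 KO libraries had 69.3% and 69.9% on day 1, 31.7% and 32.5% on day 3, 21.2% on day 6, 21.3% and 22.4% on day 9, and 21.0% and 21.9% on day 11. The genotypes did not overlap on any day, and most of the loss fell between days 1 and 3. Over the 5 days the proximal level changed by -42.4 points from control to Dnmt1 KO (two-sided exact permutation test of genotype within days, p = 0.00077, the smallest this test allows, adjusted p = 0.0036, lower in 9 of 9 libraries). In such counts a Dnmt1 KO library is included where it lies beyond every control library of its day. Adjusted p-values over libraries come from a family of 14 tests with the Benjamini-Hochberg method, and those of single chromosomes from the 19 chromosomes. P-values of alternatives are not adjusted. By day, the difference was -6.29 points on day 1, -43.2 on day 3, -57.8 on day 6, -54.9 on day 9 and -49.9 on day 11.

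**Figure D1:**
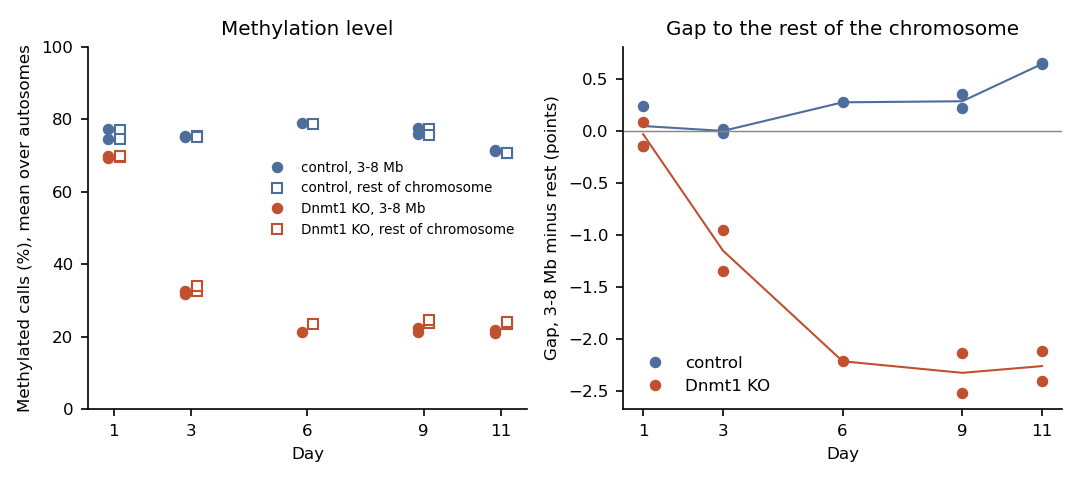
CpG methylation level (%) of each library against day, for the proximal 5 Mb (filled) and the rest of the same chromosomes (open), and beside it the gap between them in percentage points; each point is 1 library, and lines in the gap panel join the means of a genotype. Control levels of proximal and rest nearly coincide (75.3% against 75.1% on average), and the Dnmt1 KO gap lies between -2.52 and -0.954 points from day 3 on.

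The gap between the proximal 5 Mb and the rest of the same chromosome lay lower in the Dnmt1 KO libraries from day 3 on. The gap is the proximal percent minus the percent of all other tiles of that chromosome, again averaged over 19 chromosomes. In control it was 0.240 and -0.143 points on day 1, 0.0213 and -0.0188 on day 3, 0.276 on day 6, 0.218 and 0.356 on day 9, and 0.641 and 0.650 on day 11. In Dnmt1 KO it was -0.147 and 0.0862 on day 1, -0.954 and -1.35 on day 3, -2.22 on day 6, -2.52 and -2.14 on day 9, and -2.41 and -2.12 on day 11. The genotypes overlapped on day 1 and at no later day. The mean level of the 5 Dnmt1 KO libraries of days 6 to 11 was 21.6% ± 0.576 (SD, n = 5) in the proximal tiles and 23.9% ± 0.467 in the rest.

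Over all days the gap of Dnmt1 KO minus that of control was -1.85 points (exact permutation p = 0.0015, adjusted p = 0.0046, lower in 8 of 9 libraries). Within Dnmt1 KO of days 3 to 11 it was -1.96 ± 0.580 points (SD, n = 7, exact sign-flip p = 0.0156, the smallest possible for 7 libraries, adjusted p = 0.0189, below 0 in 7 of 7). That gap was -1.16 points with the rest weighted to the proximal CpG spacing and -1.05 points for 3 to 13 Mb, each with the same exact p. The SD over the 7 libraries includes the change from day 3 to later days. For days 6 to 11 alone the gap was -2.28 ± 0.176 points (n = 5). In control the gap was 0.249 ± 0.275 points (n = 9, exact sign-flip p = 0.0234, adjusted p = 0.0234, above 0 in 7 of 9). The control gap was small against the spread over chromosomes. It changed sign to -0.587 points when calls were summed over chromosomes, and turned negative, with its call lost, without chromosomes 4 (-0.0252 points, exact p = 0.777), 15 (-0.0101) or 17 (-0.00826). It was larger as a median over chromosomes (1.06), for 3 to 13 Mb (0.909) and with the rest weighted to the proximal CpG spacing (0.469). With single chromosomes left out it ranged from -0.0252 to 1.06 points. With calls summed, the difference between genotypes was -0.893 points (exact permutation p = 0.0054), in the same direction. When the rest of each chromosome was weighted to the CpG spacing of its proximal tiles, it was -1.35 points (exact permutation p = 0.0015).

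On the ratio scale the proximal 5 Mb also kept less. The retained share is the level of a Dnmt1 KO library as a percent of the control mean of the same day. It averaged 91.7% in the proximal tiles and 91.8% in the rest on day 1, 42.6% and 44.2% on day 3, 26.9% and 29.8% on day 6, 28.5% and 31.6% on day 9, and 30.1% and 33.6% on day 11. The proximal share was below that of the rest in 7 of 7 libraries of days 3 to 11, with a mean difference of -2.74 points (exact sign-flip p = 0.0156, adjusted p = 0.0189). The slightly higher shares of day 11 stood beside lower control levels on that day, not beside higher Dnmt1 KO levels.

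The loss was seen in sparse CpGs, inside genes and outside genes alike. Among CpGs with under 10 CpGs within 250 bp on either side, itself included, the proximal level was 80.3% in control against 80.4% in the rest, and 22.0% against 24.5% in Dnmt1 KO of days 6 to 11. The gap of these CpGs differed by -1.71 points between genotypes (exact permutation p = 0.0023, adjusted p = 0.0046). Inside genes the difference was -1.41 points (p = 0.0039 by the same exact test, adjusted p = 0.0060), and outside genes by -1.58 points (exact p = 0.0023, adjusted p = 0.0046).

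CpGs in closer surroundings behaved less evenly. For CpGs with 10 to 24 neighbours counted in this way the difference was -1.35 points (exact permutation p = 0.0231, adjusted p = 0.0234), with 5 of 9 Dnmt1 KO libraries below every control library of their day. With the replicate number as a block that p was 0.0625. Dense CpGs, with 25 or more, were more methylated in the proximal tiles than in the rest in both genotypes, at 12.9% against 7.89% in control and 4.81% against 3.13% in Dnmt1 KO of days 6 to 11. Dense CpGs were not tested.

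The shift was not shared by all chromosomes. Dnmt1 KO had the lower gap on 14 of 19 chromosomes and the higher on 3, by exact permutation tests adjusted over the 19 chromosomes. The number was between 15 and 17 in all when any library was left out. Chromosomes 3, 4, 13, 5 and 8 had the largest drops, with differences of -5.49, -5.25, -4.53, -4.35 and -3.87 points. Chromosomes 1, 9, 15, 17, 10, 18, 2, 12 and 6 lay between -3.15 and -0.814 points. Chromosome 16 differed by -0.0187 points (exact permutation p = 0.929). Chromosome 14 differed by -2.59 points (exact permutation p = 0.123) on only 1165 to 1987 proximal calls per library. When cytosines with over 20 calls were kept, 11 chromosomes were lower and 5 higher.

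Chromosome 3 showed the widest drop. In control its proximal gap was 1.59 and -0.521 points on day 1, 0.967 and 0.341 on day 3, 0.542 on day 6, 1.76 and -0.172 on day 9, and 2.23 and 1.55 on day 11. In Dnmt1 KO it was 0.387 and 0.524 on day 1, -4.07 and -3.62 on day 3, -5.52 on day 6, -7.40 and -6.35 on day 9, and -7.79 and -6.74 on day 11. From day 3 on every Dnmt1 KO value lay below every control value. Its proximal level went from 76.8% ± 2.71 in control to 16.6% ± 1.00 in Dnmt1 KO at days 9 and 11 (SD, n = 4 each). These 5 Mb are poor in genes, with 13.3% of bases in genes. Leaving out the tile from 5.8 to 5.9 Mb, which held 5.09% of its proximal calls, raised the control gap at days 9 and 11 from 1.34 to 3.97 ± 0.938 points and gave -6.59 ± 0.577 in Dnmt1 KO.

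Chromosome 19 moved the other way in points. Its control gap was -14.5 and -13.3 points on day 1, -12.6 and -13.8 on day 3, -14.9 on day 6, -13.6 and -13.7 on day 9, and -16.4 and -16.0 on day 11. In Dnmt1 KO the gap was -11.7 and -13.2 points on day 1, -8.54 and -8.67 on day 3, -6.82 on day 6, -6.18 and -7.11 on day 9, and -6.35 and -6.38 on day 11. The gap thus became narrower by 6.19 points (exact permutation p = 0.00077, adjusted p = 0.0021), although the proximal level stayed below that of the rest in all libraries.

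Chromosomes 7 and 11 also moved up, by 1.84 points (exact permutation, adjusted p = 0.0021) and 1.08 points (adjusted p = 0.0027). All 3 chromosomes had a proximal level below the rest in control, at 58.9% on chromosome 19, 64.1% on chromosome 7 and 69.3% on chromosome 11 at days 9 and 11. At these days the proximal level was above the rest on 13 chromosomes in control and on 5 in Dnmt1 KO.

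**Figure D2:**
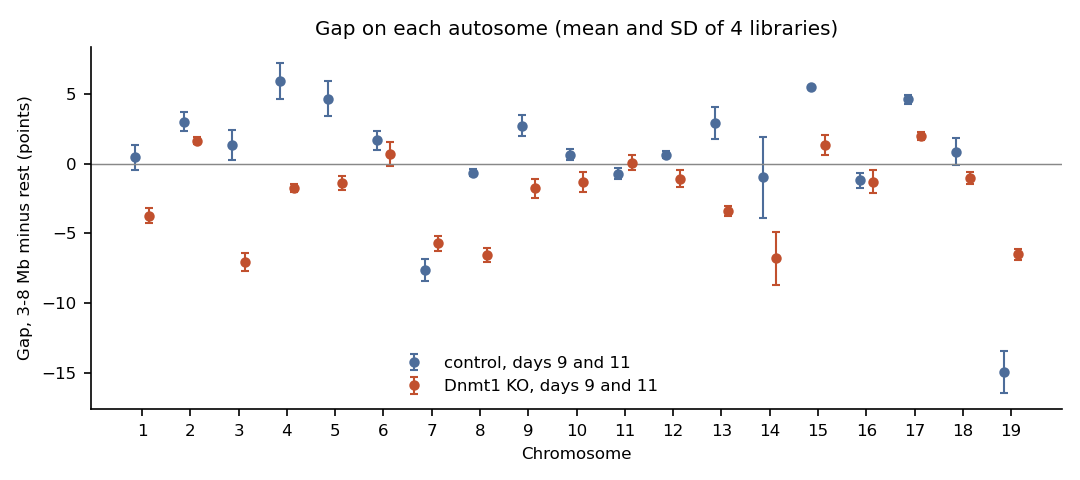
Proximal gap in percentage points (level of 3 to 8 Mb minus level of the rest of the chromosome) at days 9 and 11, for each of the 19 autosomes; points are means of 4 control or 4 Dnmt1 KO libraries and bars the SD. Chromosomes 3, 4, 5, 8 and 13 drop from control to Dnmt1 KO, and chromosome 19 rises from -14.95 to -6.51 points on average while staying below 0.

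Which chromosomes stood apart depended on the scale. As a share of control, proximal chromosome 3 retained 21.7% ± 1.25 at days 9 and 11 against 31.5% ± 1.15 in its rest (SD, n = 4), and chromosome 8 retained 24.5% against 33.2%. Chromosome 19 retained 31.7% ± 2.39 against 34.0% ± 1.33, and chromosome 7 27.0% ± 1.44 against 32.1% ± 1.22. On chromosomes 7 and 19 the gap rose in points while the mean retained share lay below that of the rest. On chromosomes 2, 6 and 17 the gap fell in points while the mean retained share lay above that of the rest. The proximal share was below the rest in all 7 libraries of days 3 to 11 on 12 chromosomes, and above it in all 7 on 2 chromosomes, 2 and 17. The means at days 9 and 11 were below on 15 and above on 4, namely 2, 6, 11 and 17. On chromosome 2 the means were 33.3% against 32.5%, and on chromosome 17 34.1% against 33.5%.

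**Figure D3:**
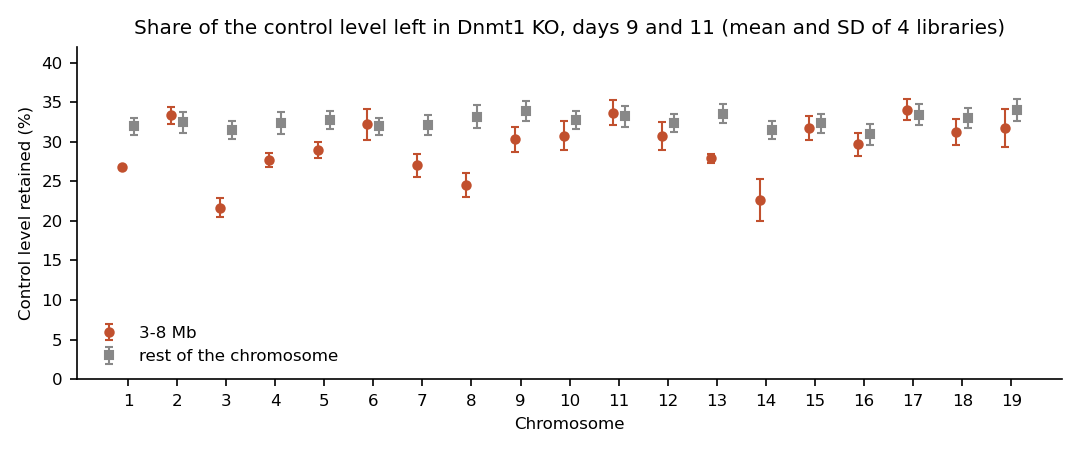
Retained methylation (Dnmt1 KO level as a percent of the control mean of the same day, days 9 and 11, n = 4 libraries) of the proximal 5 Mb and of the rest of each chromosome, as means with SD. The rest stays between 31.0% and 34.0% on all chromosomes, while the proximal values range from 21.7% on chromosome 3 to 34.1% on chromosome 17.

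The drop did not end at 8 Mb. The next 5 Mb, from 8 to 13 Mb, had a control gap of 2.10 ± 0.235 points (SD, n = 9) and a gap of -0.945 ± 0.151 points in Dnmt1 KO of days 6 to 11 (n = 5). Over all days its gap differed between genotypes by -2.33 points (exact permutation p = 0.00077, adjusted p = 0.0036). The proximal change was smaller than this by 0.480 points (exact permutation p = 0.00077, adjusted p = 0.0036, in this direction in 9 of 9 libraries). The size of that difference depended on the processing. It was 1.18 points with cytosines of over 20 calls kept, 0.865 as a median over chromosomes and 0.409 with the limit at 10 calls. The gap of the last 5 Mb of each chromosome was higher in Dnmt1 KO instead, by 0.901 points within days over all days (exact permutation p = 0.0031, adjusted p = 0.0054). It was -1.32 ± 0.227 points in control (n = 9) and -0.172 ± 0.171 in Dnmt1 KO of days 6 to 11 (n = 5). The proximal and distal ends differed by -2.75 points in this change (exact permutation p = 0.0023, adjusted p = 0.0046). CpG density was 7.59 per kb in 8 to 13 Mb and 9.66 per kb in the distal 5 Mb, beside 7.99 in the proximal 5 Mb.

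Along the chromosome, the mean Dnmt1 KO gap was negative throughout 3 to 8 Mb and likewise at every step beyond it, up to 20 Mb. In steps of 0.5 Mb it lay between -3.19 and -1.58 points inside the proximal 5 Mb at days 9 and 11. Further in it ranged from -0.294 points at 12.5 to 13 Mb to -4.59 points at 19.5 to 20 Mb. The control gap was 0.125 ± 0.350 points at 3 to 3.5 Mb, -0.909 ± 0.423 at 4.5 to 5 Mb and 4.37 ± 0.740 at 7.5 to 8 Mb (SD over 4 libraries).

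**Figure D4:**
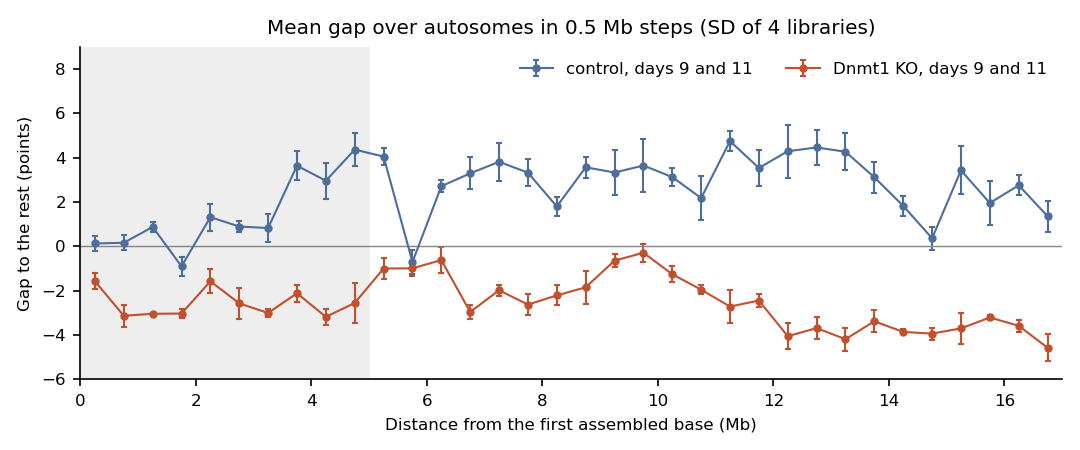
Gap to the rest of the chromosome (percentage points, mean over chromosomes, days 9 and 11) in steps of 0.5 Mb against distance from the first assembled base, for control and Dnmt1 KO; shading marks the proximal 5 Mb and error bars show the SD over 4 libraries. The Dnmt1 KO values lie between -3.19 and -1.58 points within the shaded stretch, and values as low and lower occur beyond it.

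Other 5 Mb blocks fell as low. The autosomes held 473 such blocks, and the 19 proximal ones had a median Dnmt1 KO gap of -1.39 points at days 9 and 11, against -0.173 for the others, which spread from -11.6 to 10.1 points. The change from control to Dnmt1 KO had a median of -2.61 points in the proximal blocks and -0.650 in the others. By Dnmt1 KO gap the proximal block was the lowest of its chromosome only on chromosome 19, and ranked below the middle on 14 of 19. By the change from control it was the lowest on 0 chromosomes, ranked below the middle on 15, and was the highest of 11 blocks on chromosome 19. Blocks with more CpGs per kb moved up more, with a Spearman correlation of 0.807 over the 19 proximal blocks and 0.910 over all 473. This describes blocks that share libraries and base composition, and gives no test.

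Tile by tile, the relative change is the gap of a 100 kb tile to the rest of its chromosome in Dnmt1 KO minus the same gap in control, averaged over days 9 and 11. A negative value means that the tile lost more points than its chromosome did. limma fitted over all 23759 tiles called 426 of 893 proximal tiles lower (47.7%) and 101 higher (11.3%), at an adjusted p under 0.05 and at least 5 points. Over all autosomal tiles 40.8% were called lower and 16.3% higher, so the proximal tiles leaned further to the lower side. The median relative change was -5.50 points in the proximal tiles and -3.03 in the rest. The tested tiles held 50 to 7686 calls per library, with a median of 286.

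In control 423 proximal tiles were called above their chromosome (47.4%) and 151 below (16.9%), close to the 45.2% and 16.5% of all tiles. In Dnmt1 KO 83 were called above (9.29%) and 279 below (31.2%), beside 18.3% and 30.8% of all tiles. The proximal tiles thus differed from the background mainly in having few tiles above their chromosome in Dnmt1 KO. Their median gap was 4.76 points in control and -2.74 in Dnmt1 KO, beside 4.37 and -1.46 in the rest.

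The tiles were unevenly spread over chromosomes. On chromosome 3, 39 of 50 tiles were called lower and 1 higher, and on chromosome 8, 38 of 50 and 4. Chromosomes 4 and 13 had 34 lower tiles each and chromosome 5 had 31. On chromosome 19, 27 of 47 tiles were called higher and 4 lower, with a median of 7.03 points. Chromosome 7 was split, with 13 higher and 20 lower of 45. Only 5 tiles of chromosome 14 were tested, 2 of them called lower.

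The relative change followed the CpG density of a tile, inside the proximal 5 Mb as outside. Tiles with under 5 CpGs per kb had a median of -13.4 points in the proximal 5 Mb and -14.5 in the rest, and those with 5 to 7 had -10.0 in both. Tiles with 7 to 9 had -3.96 and -2.88, those with 9 to 12 had 0.590 and 2.41, and those with over 12 had 5.56 and 6.72. In the 2 lowest classes proximal medians were thus at or above those of the rest, and in the 3 higher classes below. The proximal tiles held more of the class of 5 to 7 CpGs per kb (35.3% against 26.3%) and fewer of the class over 12 (12.0% against 17.1%). Spearman's correlation of CpG density with relative change was 0.771 over 893 proximal tiles and 0.861 over 22866 other tiles. Neighbouring tiles share libraries and sequence, so this is a description.

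The retained share rose with CpG density up to the class of 9 to 12. The median tile retained 20.3% in the lowest class of the proximal 5 Mb and 18.2% in that of the rest, 34.1% against 36.6% in the class of 9 to 12, and 32.5% against 36.4% in the class over 12. Over all tested tiles the median retained share was 28.8% (quartiles 24.02% and 33.1%) in the proximal 5 Mb and 31.0% (23.3% and 36.3%) in the rest.

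**Figure D5:**
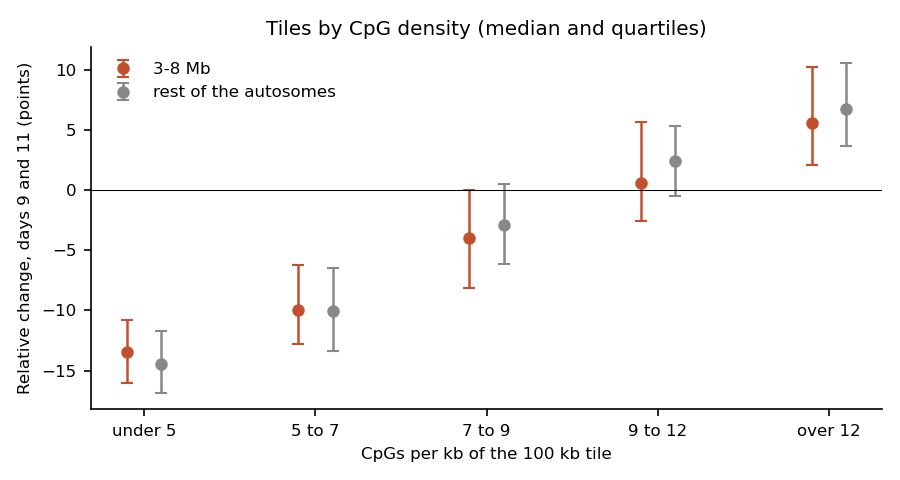
Relative change of 100 kb tiles at days 9 and 11 (percentage points, Dnmt1 KO gap minus control gap) in 5 classes of CpGs per kb, for the proximal 5 Mb and the rest of the autosomes; points are medians over tiles and bars span the quartiles. Medians rise from -13.4 to 5.56 points over the proximal classes and from -14.5 to 6.72 over the rest.

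The 3 proximal tiles with the lowest relative change lay in sparse, nearly gene-free sequence. The tile chr2:7800001-7900000, which holds the chromosome 2 window printed above, had 4.86 CpGs per kb and no annotated gene. Its level was 85.4% and 79.9% in control on day 9 and 85.6% and 82.9% on day 11. In Dnmt1 KO it was 8.93% and 19.1% on day 9 and 11.7% and 12.95% on day 11. The groups were far apart, and the tile retained 15.8% of its control level. Its relative change was -21.3 points (SE 2.61, limma adjusted p = 2.8e-05).

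The tile chr7:5600001-5700000 had 5.83 CpGs per kb and holds the vomeronasal receptor gene Vmn1r62. Its level was 88.1%, 82.8%, 80.0% and 79.5% in the control libraries of days 9 and 11, and 9.44%, 15.1%, 12.4% and 14.3% in Dnmt1 KO. Its relative change was -21.3 points (SE 2.60, limma adjusted p = 2.7e-05). The tile chr8:7100001-7200000, source of the chromosome 8 window, had 4.37 CpGs per kb and no gene. It went from 87.4%, 82.6%, 81.4% and 84.9% to 13.2%, 13.7%, 13.4% and 15.03%, with a relative change of -20.7 points (SE 2.48, limma adjusted p = 2.4e-05). Without the 1 kb around their best covered window, these 3 tiles had relative changes of -20.1, -21.9 and -20.6 points.

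The highest relative change belonged to chr3:5800001-5900000, but it rested on 1 kb. The tile had 5.32 CpGs per kb, no annotated gene and 19 cytosines left out for over 20 calls. Its level was 34.0%, 28.6%, 27.0% and 29.9% in control at days 9 and 11 and 6.06%, 9.79%, 4.57% and 7.94% in Dnmt1 KO, a relative change of 29.2 points (SE 1.73, limma adjusted p = 2.1e-08). The 1 kb around the chromosome 3 window printed above held 69.0% of its calls at a level of 6.49% in control and 2.56% in Dnmt1 KO. Without that 1 kb the tile went from 81.0% ± 1.72 to 16.8% ± 6.17 (SD, n = 4 each), and the relative change turned to -12.3 points, which places it among the other tiles of chromosome 3, whose median was -11.5.

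The other 2 tiles at the upper end were gene-rich sequence of chromosome 19. The tile chr19:7400001-7500000, with 14.7 CpGs per kb, holds Mark2 beside 2700081O15Rik, AI846148 and the pseudogene Rab11b-ps2. Its level was 41.0%, 51.1%, 56.8% and 44.7% in control and 19.7%, 17.4%, 15.9% and 20.1% in Dnmt1 KO, a relative change of 18.4 points (SE 3.24, limma adjusted p = 2.6e-04) and a retained share of 37.8%. The tile chr19:5000001-5100000, with 19.2 CpGs per kb, holds 9 coding genes, among them Brms1, a suppressor of breast cancer metastasis, Cd248, an endosialin of stromal cells, and Rin1, an effector of Ras. It went from 47.3%, 46.2%, 33.1% and 45.3% to 11.7%, 17.8%, 13.02% and 10.7%, a relative change of 18 points (SE 2.37, limma adjusted p = 4.2e-05) and a retained share of 31.0%. Both still lost methylation. Their gap to the chromosome was -24.5 and -29.2 points in control and -6.09 and -11.22 points in Dnmt1 KO. Without the 1 kb of best coverage their changes were 15.6 and 17.5 points.

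Over time, every tested proximal tile lost methylation in the step from day 1 to day 3 of Dnmt1 KO. A quasi-binomial fit with a threshold of 10 points called 893 of 893 lower, beside 100% of all tiles, with a median of -38.8 points. By day 11 all 893 were lower than in control (100% of all tiles), with medians of -53.1 points in the proximal tiles and -50.7 in the rest. From day 3 to day 9, 479 were called lower (53.6%, beside 48.8% of all tiles), with a median of -10.5 points. That count fell to 201 when Dnmt1 KO day 3 replicate 2 was left out (22.5%, beside 19.5% of all tiles) and to 174 when Dnmt1 KO day 9 replicate 1 was (19.5%, beside 17.8%).

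Differences at the edges of the time course were smaller and rested on few libraries. At day 1, 154 proximal tiles were already lower in Dnmt1 KO (17.2%, beside 14.8% of all tiles), with a median of -6.98 points. Leaving out control day 1 replicate 1 gave 27 tiles (3.02%, beside 3.05% of all tiles). Leaving out a day 1 library of Dnmt1 KO gave 61 without replicate 1 (6.83%, beside 7.87%) and 84, of which 2 were higher, without replicate 2 (9.41%, beside 9.71%). In these 3 fits the proximal share was thus not above that of all tiles. Control cells also drifted, with 61 tiles lower on day 11 than on day 9 (6.83%, beside 6.54% of all tiles) and a median of -4.57 points. Leaving out control day 9 replicate 1 gave 9 tiles (1.01%, beside 1.06% of all tiles). Leaving out a control library of day 11 gave 37 without replicate 1 (4.14%, beside 3.82%) and 30 without replicate 2 (3.36%, beside 3.51%).

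Gene bodies within the proximal 5 Mb were called higher more often than lower, with shares near those of all genes. Of 11376 autosomal genes with at least 50 calls in every library, 418 lay in the proximal tiles, and limma called 53 of them higher (12.7%, beside 16.7% of all genes) and 35 lower (8.37%, beside 6.69%). Their median relative change was 2.28 points, against 3.21 for genes elsewhere, and they retained 32.6% of their control level against 34.6%. Of 32 genes listed by role, all lie wholly within 3 to 8 Mb and 23 could be tested, with 3 called higher, 3 lower and 17 not called. The median over the 23 was -0.0818 points, beside 3.18 over all genes tested.

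The chromatin and replication list held 1 gene called higher and 4 not called of 5 tested. Dnmt3a (ENSMUSG00000020661.9, chr12:3806007-3914443), which encodes a de novo methyltransferase, had gene-body levels of 65.6%, 64.3%, 58.7% and 57.1% in control at days 9 and 11, and 22.4%, 28.7%, 21.7% and 26.8% in Dnmt1 KO. Its gap to the chromosome was -13.4 points in control and 0.683 points in Dnmt1 KO, a relative change of 14.1 points (SE 2.27, limma adjusted p = 1.6e-04) with 40.5% retained. Within 1 kb of its start, 15.4% of 52 control calls and 0 of 95 Dnmt1 KO calls were methylated, which allows up to 3.16%. The other tested members were Suv420h1, a methyltransferase for lysine 20 of histone H4, with 6.57 points (SE 4.94), Crebbp, an acetyltransferase, with -2.82 (SE 2.93), Arid1b, a subunit of the BAF remodeller, with -0.678 (SE 1.45), and Mcm10, a replication factor, with 0.603 (SE 3.81). Men1 had too few calls in its body.

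The genes of the LIF family, whose cytokine keeps these cells undifferentiated in culture, were not called. The cytokine Lif itself had a relative change of 4.85 points (SE 5.84), its receptor subunit Lifr 3.16 (SE 1.98) and the oncostatin receptor Osmr -0.561 (SE 3.03). Lif had a low gene-body level in control, 55.2% ± 6.86, and went to 13.8% ± 7.33 (SD, n = 4 each). The start of Lifr was nearly free of methylation in both genotypes, at 2.55% of 157 control calls and 0.935% of 107 Dnmt1 KO calls. Those of Lif (69.8% of 53 control calls, 18.5% of 27 in Dnmt1 KO) and Osm (73.4% of 64, 28% of 25) were methylated in control. Control starts of Osmr (18.1% of 127) and Clcf1 (20% of 55) lay between. The bodies of Osm and Clcf1 were not tested.

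Imprinted genes and their neighbours lie in clusters on proximal chromosomes 6 and 7, where 1 parental copy of the control region is methylated. Of 7 tested, 1 gene was called higher and 1 lower. Ppp1r9a, which encodes the actin-binding protein neurabin, had levels of 78.5%, 77.5%, 74.0% and 73.7% in control at days 9 and 11 and 31.2%, 28.5%, 30.3% and 34.3% in Dnmt1 KO, a change of 6.03 points (SE 1.40, limma adjusted p = 0.0039). Calcr, the calcitonin receptor gene, went from 77.8%, 82.7%, 80.7% and 80.3% to 19.2%, 13.5%, 20.6% and 20.5%, a change of -11.1 points (SE 2.76, limma adjusted p = 0.0061). The bodies of Peg10 (-1.13 points, SE 5.44), Sgce (3.63, SE 2.13), Asb4 (6.96, SE 2.85), Peg3 (0.178, SE 4.99) and Zim1 (-8.24, SE 5.21) were not called, and Usp29 was not tested.

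The starts of Peg10, Sgce and Peg3 stood near the middle of the scale in control. Within 1 kb of the Peg10 start, 52.4% of 145 control calls were methylated (exact interval 44.0% to 60.8%) and 6.57% of 198 in Dnmt1 KO (3.54% to 10.97%), pooled over days 9 and 11. The start of Sgce shares most of this window, at 52.8% and 7.22%. At the start of Peg3, a zinc finger gene expressed from the paternal copy, 42.8% of 145 control calls (34.6% to 51.2%) and 0.976% of 205 Dnmt1 KO calls (0.118% to 3.48%) were methylated. The intervals of the genotypes did not overlap at Peg10, Sgce or Peg3, although pooled calls carry no spread between libraries.

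Developmental transcription factors were mixed, with 1 called higher, 2 lower and 4 not called of 7 tested. Glis2, a zinc finger gene (chr16:4594713-4624924), had a gap of -33.7 points in control of days 9 and 11. Its levels at these days were 50.2%, 43.7%, 32.2% and 40.4% in control and 8.59%, 18.9%, 13.5% and 11.6% in Dnmt1 KO. The change was 23.4 points (SE 4.32, limma adjusted p = 6.1e-04). Glis2 retained 31.6% of its control level, not above the median of 32.6% over the 418 proximal genes tested. Control libraries of days 1, 3 and 6 had 51.3%, 67.6%, 59.5%, 52.0% and 62.6%, above every control value of days 9 and 11. Esr1, the oestrogen receptor gene (chr10:5340927-5734948), went from 82.0%, 82.0%, 77.0% and 77.97% to 20.03%, 22.5%, 21.4% and 20.9%, a change of -8.62 points (SE 1.23, limma adjusted p = 4.3e-05). Its start was methylated in control (84.2% of 57 calls) and at 25.8% of 62 calls in Dnmt1 KO. Hnf4g, a nuclear receptor gene (chr3:3508030-3659775), went from 80.4%, 79.5%, 70.99% and 79.3% to 6.28%, 13.9%, 12.7% and 16.1%, a change of -13.3 points (SE 2.85, limma adjusted p = 0.0022), and retained 15.8%.

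Zeb1 (-2.70 points, SE 2.32), Tox (-3.15, SE 1.505), Plag1 (0.151, SE 4.04) and Crem (-0.541, SE 4.25) were not called. The starts of Klf6 and Zeb1 were unmethylated in both genotypes, at 0.435% of 230 control calls and 0 of 134 Dnmt1 KO calls for Klf6, which allows up to 2.24%, and at 1.91% of 209 and 0 of 181 for Zeb1, which allows up to 1.66%. Klf6, Sox17, Dlx5 and Dlx6 had bodies with too few calls. Of the nuclear RNAs on chromosome 19, Neat1 had a change of -0.0818 points (SE 4.44) and Malat1 was not tested.

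Outside the listed genes, the extremes among the 418 proximal genes were picked after their values were seen. The highest was Patz1 on chromosome 11, a transcriptional repressor gene, at 28.5 points (SE 4.58), followed by Mboat7 on chromosome 7, a lysophospholipid acyltransferase gene that retained 53.3%, at 28.0 (SE 5.15). Rps6ka4, Bad and Tmem151a on chromosome 19 followed at 27.9, 25.5 and 25.4 points. They retained 44.9%, 26.4% and 34.2% of their control levels, beside a median of 32.6% over the 418 genes. A high change in points was thus not always a high retained share. The lowest were Nlrp2 on chromosome 7, at -16.1 points (SE 4.11), and Tbc1d10a on chromosome 11, at -16.1 (SE 4.15). Zfhx4, a large homeobox gene on chromosome 3, had -14.4 points (SE 1.91) and retained 18.2%.

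The cytosines left out of all these values behaved differently. There were 839 proximal cytosines with over 20 calls in some library, on 8 chromosomes, and 776 of them lay in the tile chr9:3000001-3100000. They took 30.5% to 44.6% of all proximal calls per library. Their level was 82.1% ± 0.864 in control and 37.9% ± 0.346 in Dnmt1 KO at days 9 and 11 (SD, n = 4 each), above the level of the proximal tiles in both. The 1003 such cytosines in the rest of the autosomes went from 80.5% ± 1.30 to 34.4% ± 1.05. Whether their calls came from several copies of a repeat was not tested. With these cytosines kept, the gap differed by -1.38 points between genotypes (exact permutation p = 0.0023).

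Coverage differed slightly too. Calls per reference CpG in the proximal tiles were divided by those of the rest per chromosome, and the log2 ratios averaged with equal weight. The ratio was 0.880 ± 0.0156 in control (SD, n = 9) and 0.894 ± 0.00604 in Dnmt1 KO of days 3 to 11 (n = 7). Chromosome 14 weighed heavily in it, with a control log2 ratio of -3.01. The other chromosomes lay between -0.213 and 0.327 in control. The log2 ratio differed by 0.02 between genotypes (exact permutation p = 0.0162, adjusted p = 0.0189, above every control library of the same day in 7 of 9 libraries). It was 0.01 without control day 1 replicate 2 (p = 0.0532 by the same exact test), whose ratio of 0.843 was the lowest. Leaving out a Dnmt1 KO library of day 1 gave an exact p of 0.119 (replicate 1) or 0.0502 (replicate 2). The part of coverage in the methylation gap was not tested.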

How the data were processed

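According to the methods, the authors used Trim Galore for trimming and Bismark for alignment to NCBIM37, removed duplicates and extracted CpG calls. The submitters' processing notes name Bismark 0.12.3, whereas the methods name a later version. The deposited tables give counts of methylated and of unmethylated calls per cytosine and strand, and the deposited percent, which matched the counts at every entry and was not used further. Any minimum coverage before deposit is not given in the sources used here.

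Calls outside a CpG of NCBIM37 (0.101% to 0.119% of entries) and cytosines with over 20 calls in any library were left out. Calls were summed per 100 kb tile, per gene of the GENCODE models of that build and per zone. Levels and gaps were computed per chromosome and averaged over 19 autosomes. Library values were compared with two-sided exact permutation tests (genotype within day, or sign flips), adjusted over 14 tests. Tests of single chromosomes were adjusted over the 19 autosomes. Tiles and genes holding 50 calls or more per library were fitted with limma 3.58.1 in R 4.3.3 on the gap to the rest of the chromosome, weighted by calls. Steps in time used a quasi-binomial model of the counts with dispersions moderated by limma (median 2.04), called at 10 points. All 18 libraries entered each fit, and the lone day 6 libraries were assumed to vary like the others. The fits were checked on binomial draws with known changes. These draws lacked the extra spread of the real counts, so they do not measure the rate of false calls in the real data.

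Tiles named in the text are the 3 with the highest and the 3 with the lowest relative change. Listed genes were grouped by role, and those with too few calls in the body were not tested. The members, lists and tests were chosen with earlier results of these data known. Replicate numbers were not taken as pairs in the main tests. Alternatives were another limit on calls per cytosine, another minimum of calls, unweighted fits, a replicate block, other limits of the region, other averages over chromosomes, weighting by CpG density, and leaving out each library. Chosen after seeing the data were leaving out each chromosome, the 1 kb of best coverage in a named tile, and single tiles of chromosomes 3 and 6. Promoter tables of another build were not used here.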

Additional observations from a re-analysis of the deposited data

Results flagged for a closer look

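2 values lay far from the others of their group by Dixon's criterion, which chance meets in about 1 group of 20, among 27 groups and measures examined. The call density ratio of control day 1 replicate 2 was 0.843, against 0.872 for the nearest of the 9 control libraries (gap 0.573 of the range, critical value 0.493). In the proximal tiles outside genes, the gap of control day 9 replicate 2 was 0.519 points, against 0.167 for the nearest of the 4 control libraries of days 9 and 11 (gap 0.861 of the range, critical value 0.829).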

How the results depend on the processing

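Among results that answer a comparison, 576 alternative values kept direction and call, 23 lost the call or moved a count by over 1.5 times, and 4 changed sign. The gap of Dnmt1 KO and its difference from control kept direction and call under every alternative run (difference -2.30 to -1.65 points without a chromosome, -1.89 to -1.69 without a library). The control gap changed sign with calls summed (-0.587) and without chromosomes 4 (-0.0252), 15 (-0.0101) and 17 (-0.00826). It was not called without chromosomes 2 (0.0749), 5 (0.0163), 6 (0.181), 9 (0.138), 10 (0.222), 13 (0.126) and 18 (0.213). The highest value with a chromosome left out was 1.06. The genotype difference of the log2 call density ratio was 0.0142 as a median over chromosomes (exact permutation p = 0.110), and 0.0119 to 0.0269 without a library.

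A call at 10 points in place of 5 left 316 proximal tiles with a relative change (35.4%, beside 34.1% of all tiles), 170 with a control gap (19.04%, beside 17.3%) and 76 with a Dnmt1 KO gap (8.51%, beside 14.9%). Without a library, counts ranged from 27 to 177 on day 1, 174 to 484 from day 3 to day 9, and 9 to 66 between control days 9 and 11. The lowest of these stood at 3.02%, 19.5% and 1.01% of the proximal tiles, beside 3.05%, 17.8% and 1.06% of all tiles.

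Same-numbered libraries deviated together with correlations of only -0.0031 to 0.0072 over 23759 tiles, so no pairing showed tile by tile. Single tiles hold few calls, so this cannot exclude that same-numbered libraries shared a culture or run. With a replicate block the genotype difference of the gap was -1.85 points (exact permutation p = 0.0078), 15 chromosomes passed, and the gap of intermediate CpGs was -1.35 points (p = 0.0625, exact).

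Single values that changed sign were the chromosome 3 tile without its 1 kb (-12.3 points), Peg10 unweighted (1.33) and with a replicate block (0.658), and Neat1 unweighted (0.434) and with a block (0.128). Without a library, uncalled genes ranged across 0: Mcm10 -0.668 to 2.04, Plag1 -1.59 to 2.38, Peg10 -4.43 to 6.97, Peg3 -5.26 to 7.90, Osmr -3.84 to 2.42, Arid1b -2.84 to 1.31, Crem -3.88 to 2.55 and Neat1 -2.998 to 3.41. Depth limits single tiles and genes: 1.202 to 1.253 calls per listed cytosine allow no reading of single CpGs.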

Other observations

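Leaving out the tile from 3.1 to 3.2 Mb of chromosome 6, which like the named tile of chromosome 3 held 19 cytosines with over 20 calls and a low control level (50.9%), changed the proximal gap of chromosome 6 at days 9 and 11 from 1.67 to 2.45 ± 0.584 points in control and from 0.697 to 0.915 ± 0.888 points in Dnmt1 KO (SD, n = 4 each). The 19 left-out cytosines of that tile were methylated at 4.32% in control and 3.196% in Dnmt1 KO. Those of the chromosome 3 tile stood at 4.17% and 3.11%.

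In the tile chr12:3100001-3200000, 12 cytosines with over 20 calls were methylated at 82.8% in control and 38.7% in Dnmt1 KO, close to the 82.4% and 38.0% of the 776 such cytosines at the start of chromosome 9. In the tile chr11:3000001-3100000, 9 such cytosines stood at 50.6% and 13.6%.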
